A study of Homo sapiens with 6 samples.

Results

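The regions described here were listed as NeuroD1 regions in H524 cells but not in H82 cells, and lay on H3K4me3 in at least 1 of these lines. They were chosen from the peak list of the H524 NeuroD1 library, after entries with the same interval had been merged, by the absence of any overlapping H82 NeuroD1 region and by an overlap of at least 1 bp with an H3K4me3 region of H524 or of H82. Of 20593 H524 NeuroD1 regions, 18538 (90.0%) overlapped no H82 NeuroD1 region, 4209 (20.4%) overlapped H3K4me3 of either line, and 3384 met both conditions. These numbers and shares follow from the choice of regions and are given as a description. Per the labels, H524 and H82 are small cell lung cancer lines, and both were untreated. They were immunoprecipitated with antibodies against NeuroD1 and against H3K4me3, with 1 library for each antibody and line, and the input libraries of both lines were not analysed here.

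NeuroD1 is a basic helix-loop-helix transcription factor of neurons and neuroendocrine cells. It pairs with ubiquitous E proteins to bind the short DNA motif called the E-box, and its high expression defines a neuroendocrine subtype of small cell lung cancer. H3K4me3 is trimethylation of lysine 4 of histone H3, which is concentrated on the nucleosomes that flank the start sites of active genes, while the start site itself is often depleted of nucleosomes. A region on the mark is therefore usually read as promoter-proximal. Regions are given by coordinates in build hg19, without gene names or sequences, since a genome and gene annotation of that build were not used here.

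With 1 library per antibody and line, differences have no replicate check and are given without p-values. Shares carry exact Clopper-Pearson 95% intervals and differences between shares carry Newcombe 95% intervals, both of which cover counting error only, because neighbouring regions are not independent. The peak lists carry no read numbers, so sequencing depth is unknown. The H524 NeuroD1 list held 20593 regions and the H82 NeuroD1 list 3854, whereas the H3K4me3 lists held 18595 regions in H524 and 18208 in H82. A region absent from the much shorter H82 NeuroD1 list may have been below its threshold rather than unbound, and depth and binding cannot be told apart.

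Where only 1 line carried the mark, it was more often the line in which the NeuroD1 region was listed. Of the 3384 H524-only regions, 1848 (54.6%, 52.9 to 56.3) were marked in both lines, 915 (27.0%, 25.5 to 28.6) in H524 only and 621 (18.4%, 17.1 to 19.7) in H82 only. The mark of H524 alone was thus 1.47-fold as frequent as the mark of H82 alone (1.33 to 1.63), and its share was 8.69 points higher (6.42 to 10.9). This difference was 4.15 points (0.149 to 8.11) with every list limited to regions at or above its median score. It was 4.89 points (2.04 to 7.72) where at least 50% of the NeuroD1 region had to be covered. Both settings also applied to the H82 NeuroD1 list, so regions shared in the main analysis could count as H524-only. The 825 NeuroD1 regions of H524 that were at the mark and shared with H82 had the opposite order. Among them 460 (55.8%, 52.3 to 59.2) were marked in both lines, 78 (9.45%, 7.55 to 11.7) in H524 only and 287 (34.8%, 31.5 to 38.1) in H82 only, a ratio of 0.272 (0.209 to 0.350). The share marked in both lines differed by −1.15 percentage points (−4.90 to 2.65), an interval that includes 0. The share marked in H524 only was 17.6 points higher in the H524-only regions than in the shared ones (14.9 to 20.0), and the share marked in H82 only was 16.4 points lower (difference −16.4, −20.0 to −13.0).

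**Figure D1:**
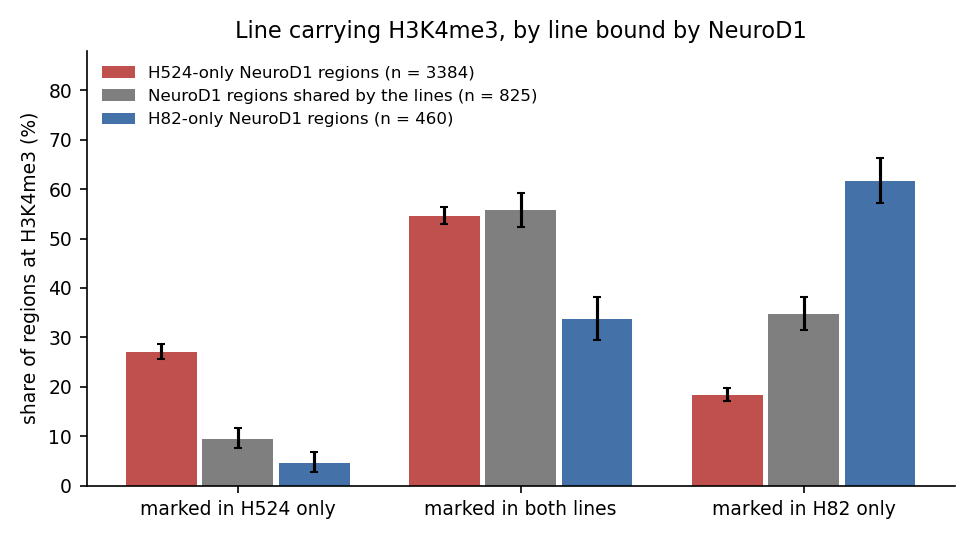
Share of NeuroD1 regions at H3K4me3 (y axis, percent) that carry the mark in H524 only, in both lines or in H82 only (x axis), for H524-only regions, shared regions and H82-only regions; error bars are exact 95% intervals for counting error. Marking in H524 only is 27.0% in H524-only, 9.45% in shared and 4.57% in H82-only regions, and marking in H82 only has the opposite order.

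The odds of H524-only against H82-only marking were 5.42-fold higher for H524-only than for shared NeuroD1 regions (odds ratio 5.42, 4.14 to 7.10). Both conditions that chose the regions enter these odds, so the odds ratios are a description with no test. Pooled within the 23 chromosomes by the Mantel-Haenszel method, the odds ratio was 5.30 (3.98 to 7.04), and pooled within 4 classes of NeuroD1 score it was 5.87 (4.39 to 7.83). It was 2.88 (2.05 to 4.05) when every list was limited to regions at or above its median score. H524 regions whose only H82 counterpart scored lower then counted as H524-only. The H82-only NeuroD1 regions at H3K4me3, taken from the H82 list, stood furthest to the other side, with 21 of 460 (4.57%, 2.85 to 6.89) marked in H524 only and 284 (61.7%, 57.1 to 66.2) in H82 only. Marking in both lines was also more frequent among H524-only than among H82-only regions, at 54.6% against 33.7%, a difference of 20.9 points (16.2 to 25.4).

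Read from the side of the mark, the same counts give the share of H524 NeuroD1 regions with no H82 counterpart, as a description. It was 92.1% (90.3 to 93.7) where only H524 carried the mark, 80.1% (78.4 to 81.7) where both lines did and 68.4% (65.3 to 71.4) where only H82 did, set against 92.5% (92.1 to 92.9) at unmarked regions. The order was also seen among regions at or above the median NeuroD1 score, with 85.5% (81.8 to 88.7), 68.4% (65.5 to 71.1) and 54.0% (49.4 to 58.7), against 88.9% (88.2 to 89.6) at unmarked regions. NeuroD1 regions on H524-only H3K4me3 were therefore missing from the H82 list about as often as regions without any mark.

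For part of the regions marked in a single line, the mark of the other line lay a short distance away. Of the 915 regions marked in H524 only, 339 (37.0%, 33.9 to 40.3) had an H82 H3K4me3 region within 1 kb, and the median distance to the nearest was 8.14 kb. Of the 621 marked in H82 only, 306 (49.3%, 45.3 to 53.3) had an H524 H3K4me3 region within 1 kb, with a median distance of 1.03 kb. The difference between these shares was −12.2 points (−17.2 to −7.18). At the other extreme, 294 regions marked in H524 only (32.1%, 29.1 to 35.3) lay over 50 kb from any H3K4me3 of H82, and 108 regions marked in H82 only (17.4%, 14.5 to 20.6) lay over 50 kb from any H3K4me3 of H524, a difference of 14.7 points (10.4 to 18.9). Among H524-only NeuroD1 regions, marking in H524 only thus included a larger share with no listed mark of the other line within 50 kb. Shared regions had the reverse order. The other line's mark lay within 1 kb of 57.7% of the 78 marked in H524 only and 42.5% of the 287 marked in H82 only. It was over 50 kb away for 15.4% and 22.0%.

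The H82 NeuroD1 list held only 3854 regions. H524-only regions at H3K4me3 lay nearer to these at the median than H524-only regions without the mark. The median distance to the nearest H82 NeuroD1 region was 154 kb for the former and 224 kb for the 15154 H524-only regions without the mark. An H82 NeuroD1 region lay within 5 kb of 304 marked regions (8.98%), against 4.72% of the unmarked ones, a difference of 4.26 points (3.28 to 5.32). This share was 4.04% for regions marked in H524 only and 16.1% for those marked in H82 only, which differed by −12.1 points (−15.3 to −9.00). The median distances of these classes were 225 kb and 90.3 kb. H524-only NeuroD1 regions on the mark of H82 alone were thus the class nearest to where H82 had its own NeuroD1 regions. An H82 NeuroD1 region came within 50 bp of only 9 of the 3384 regions.

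The scores deposited by the authors, read as −log10 adjusted p-values, put the median of these regions somewhat below the middle of the H524 NeuroD1 list. The scores also decided which regions were listed, so they are described without a test. The median percentile was 41.7 (25th to 75th percentile of the regions 22.4 to 62.8) for the H524-only regions at H3K4me3, 48.4 (22.4 to 74.0) for the H524-only regions without it and 73.4 (48.4 to 89.5) for the shared regions at H3K4me3. The mark classes had near-equal medians of 42.1 in both lines, 40.4 in H524 only and 41.7 in H82 only. The regions had a median width of 454 bp, compared with 455 bp for unmarked H524-only regions and 672 bp for shared regions at the mark. More than 1 summit was listed in 9.13% of them, in 10.9% of the unmarked and in 25.5% of the shared marked regions.

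Among H524-only regions, the share at H3K4me3 was lowest where NeuroD1 scored highest. Both conditions that chose the regions enter these shares, so those of H524-only and shared regions are set side by side as a description, with no test. With the H524 NeuroD1 list divided by score into 10 classes, 8.58% (7.23 to 10.1) of the H524-only regions in the highest class were at H3K4me3. The share was 13.5% and 14.8% in the next classes and between 18.8% and 21.4% in classes 4 to 10. Shared regions had no such dip in the highest class, where 37.2% (33.1 to 41.5) were at the mark, and ranged from 34.7% to 49.2% over the classes. Over the whole list the shares were 18.3% (17.7 to 18.8) for H524-only and 40.1% (38.0 to 42.3) for shared regions, a difference of −21.9 points. H524-only regions had the lower share in 10 of 10 classes, by 14.2 to 28.7 points. The whole-list difference was −12.5 points where at least 50% of the NeuroD1 region had to be covered. That rule applied to H82 NeuroD1 as well as to the mark, so it also changed which regions counted as shared.

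**Figure D2:**
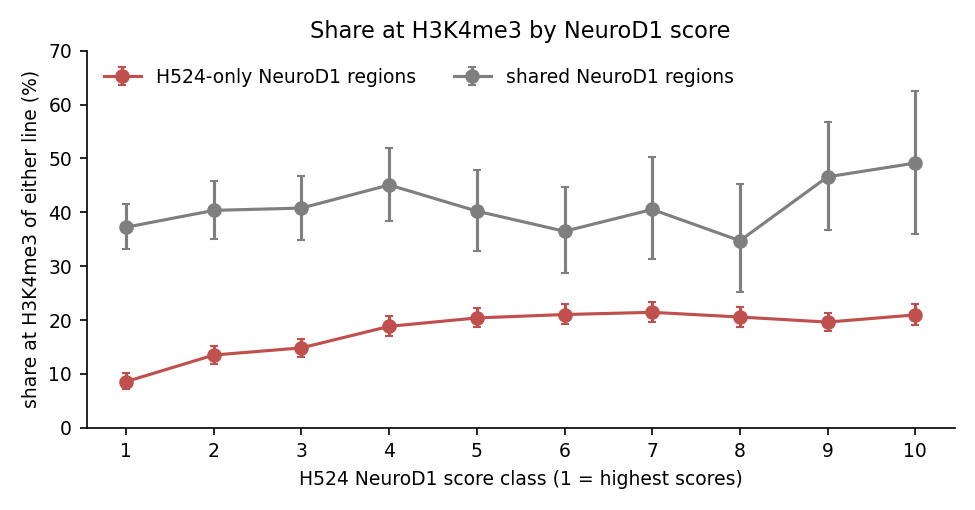
Share of H524 NeuroD1 regions at H3K4me3 of either line (y axis, percent) in 10 classes of the H524 NeuroD1 score (x axis, class 1 highest), for H524-only and shared regions; error bars are exact 95% intervals. H524-only regions start at 8.58% in class 1 and stay below the shared regions in all 10 classes.

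The few high-scoring H524-only regions on the mark were more often marked in H524 alone. Of the 132 in the highest score class, 56 (42.4%, 33.9 to 51.3) were marked in H524 only, 53 (40.2%, 31.7 to 49.0) in both lines and 23 (17.4%, 11.4 to 24.99) in H82 only. In the lowest class 112 of 364 regions (30.8%) were marked in H524 only, 182 in both lines and 70 (19.2%) in H82 only. In classes 2 to 9 the H524-only mark held between 23.1% and 28.0%.

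By position, the NeuroD1 midpoint lay inside the H524 mark more often for H524-only than for shared regions. For the 2763 H524-only regions on H524 H3K4me3, it was inside in 1901 (68.8%, 67.0 to 70.5), against 246 of 538 shared regions (45.7%, 41.5 to 50.04), a difference of 23.1 points (18.5 to 27.6). The difference was present in all 4 classes of NeuroD1 score, between 11.1 and 19.4 points. It was 20.9 points (15.4 to 26.1) in regions at or above the median width of the H524 NeuroD1 list and 10.0 points (2.06 to 19.0) in narrower ones. Conversely, the midpoint lay in a gap with H524 H3K4me3 on either side within 1 kb in 267 (9.66%, 8.59 to 10.8) of the H524-only and in 123 (22.9%, 19.4 to 26.6) of the shared regions, a difference of −13.2 points (−17.1 to −9.66). In the highest of the 4 score classes such a gap was found for 10.6% of H524-only and 25.6% of shared regions. In the lowest, at 10.0% and 15.3%, the interval of the difference included 0 (−16.7 to 2.13 points). The best-scoring H524 marks under H524-only regions were wider, with a median of 880 bp against 772 bp under shared regions. For H82 marks these medians were 955 and 984 bp. The part of mark width in the position of the midpoint was not tested.

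Against the H82 mark the differences were smaller. The midpoint was inside it in 1754 of 2469 H524-only regions on that mark (71.0%, 69.2 to 72.8) and in 431 of 747 shared ones (57.7%, 54.1 to 61.3), a difference of 13.3 points (9.40 to 17.3). It lay in a gap in 10.1% of the H524-only and 15.5% of the shared regions, a difference of −5.44 points (−8.44 to −2.72). For regions marked in H82 only, both intervals included 0. There the midpoint was inside in 58.8% of the H524-only and 51.9% of the shared regions (difference 6.86 points, −0.068 to 13.8), and in a gap in 12.7% and 12.5% (difference 0.18 points, −4.77 to 4.57).

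**Figure D3:**
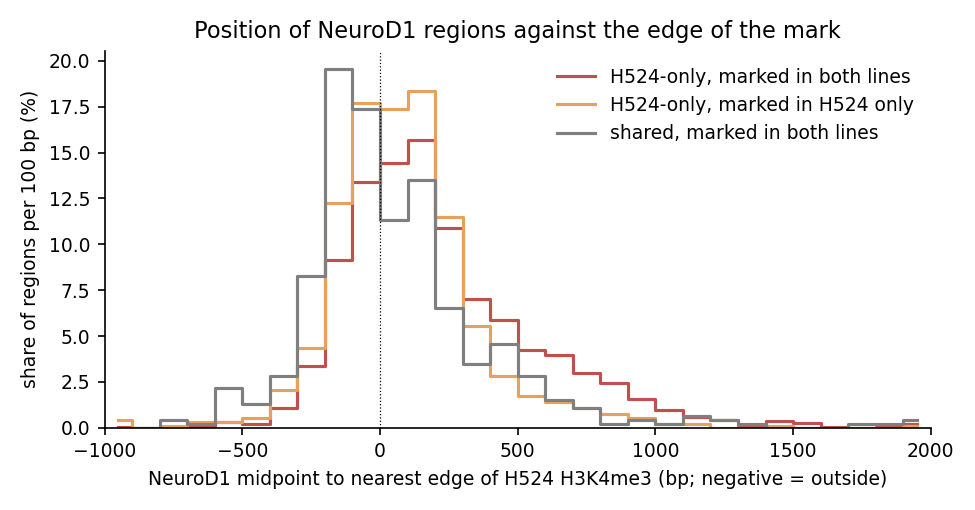
Distance from the midpoint of a NeuroD1 region to the nearest edge of H524 H3K4me3 (x axis, bp, negative outside the mark) against the share of regions per 100 bp (y axis, percent); values beyond the axis are placed in the outermost bins. The shared regions peak just outside the edge, while the H524-only regions marked in both lines have a median of 154 bp inside it.

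The mark classes also differed in how deep NeuroD1 lay in the mark. Of the 1848 regions marked in both lines, 722 (39.1%, 36.8 to 41.3) were contained in an H524 H3K4me3 region, and 760 (41.1%, 38.9 to 43.4) in one of H82. Containment was less frequent for regions marked in H524 only (25.6%, 22.8 to 28.5) and in H82 only (26.4%, 23.0 to 30.1). The median share of the NeuroD1 region covered was 82.6% by the mark of H524 and 87.3% by that of H82 in the first class, 63.6% for H524-only marking and 59.7% for H82-only marking. Median overlaps of 340, 287 and 271 bp were found for marking in both lines (H524 mark), in H524 only and in H82 only.

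These differences went with the size and rank of the mark itself, taken as the best-scoring mark under each NeuroD1 region. The H524 H3K4me3 region under a NeuroD1 region marked in both lines ranked at a median percentile of 78.8 and was 989 bp wide at the median, whereas these values were 63.1 and 672 bp where only H524 was marked. In the H82 list the corresponding values were 74.8 and 1105 bp for both lines and 54.0 and 657 bp for H82 only. Shared regions had the same order. Their H524 marks had medians of 75.9 and 789.5 bp for both lines and 68.0 and 618 bp for H524 only. Their H82 marks had median percentiles of 83.3 for both lines and 65.9 for H82 only. Of the regions marked in both lines, 62.9% (60.7 to 65.1) lay on a mark above the median score in both lists, 18.1% in the H524 list only, 12.8% in the H82 list only and 6.17% in neither. The H524 and H82 marks under the same NeuroD1 region ranked alike only loosely (Spearman rho 0.21 over 1848 regions, which share the 2 libraries). NeuroD1 and H3K4me3 scores were almost unrelated over the same regions, with rho of 0.037 for the H524 mark in regions marked in both lines, −0.029 in H524 only and −0.082 in H82 only.

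Seen from the mark, the 3384 regions touched 2773 of 18595 H524 H3K4me3 regions (14.9%, 14.4 to 15.4) and 2474 of 18208 of H82 (13.6%, 13.1 to 14.1). Nearly all of these held a single such NeuroD1 region, 2673 in H524 and 2396 in H82. H524 H3K4me3 regions that were also marked in H82 held an H524-only NeuroD1 region in 20.2% (19.4 to 21.0), and those of H524 alone in 8.97% (8.38 to 9.59). Wider marks held them more often, but the difference was present in all 4 width classes of the H524 list, from 4.80 points (2.78 to 6.76) in the third to 9.96 points (6.88 to 12.9) in the widest. In the widest class, with a median of 1220 bp, 30.8% (29.3 to 32.3) of marks of both lines and 20.8% (18.3 to 23.6) of marks of H524 alone held an H524-only NeuroD1 region. For H82 marks of the widest class the shares were 28.1% (26.6 to 29.6) where H524 was marked too and 7.91% (6.16 to 9.97) where it was not.

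The balance between single-line marks varied by chromosome together with the H3K4me3 lists as a whole. Regions marked in H524 only outnumbered those marked in H82 only on 16 of 23 chromosomes and were fewer on 7. Among the shared regions this was so on 1 of 23 chromosomes, X, with 4 against 1. Chromosome 14 had the largest excess, with 100 regions marked in H524 only and 19 in H82 only, and without it the ratio over all other chromosomes was 1.35 (1.22 to 1.51). Chromosome 12 had 16 and 42, chromosome 1 had 47 and 68, and chromosome 10 had 1 and 6. Across the 23 chromosomes, the log2 ratio of single-line marks followed the log2 ratio of the share of all H3K4me3 regions in H524 over that in H82 (Pearson r 0.82, Spearman rho 0.78), and r was 0.75 without chromosomes 10 and 19. The points share the same H3K4me3 lists. Copy number was not analysed here, and its part in the balance was not tested.

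**Figure D4:**
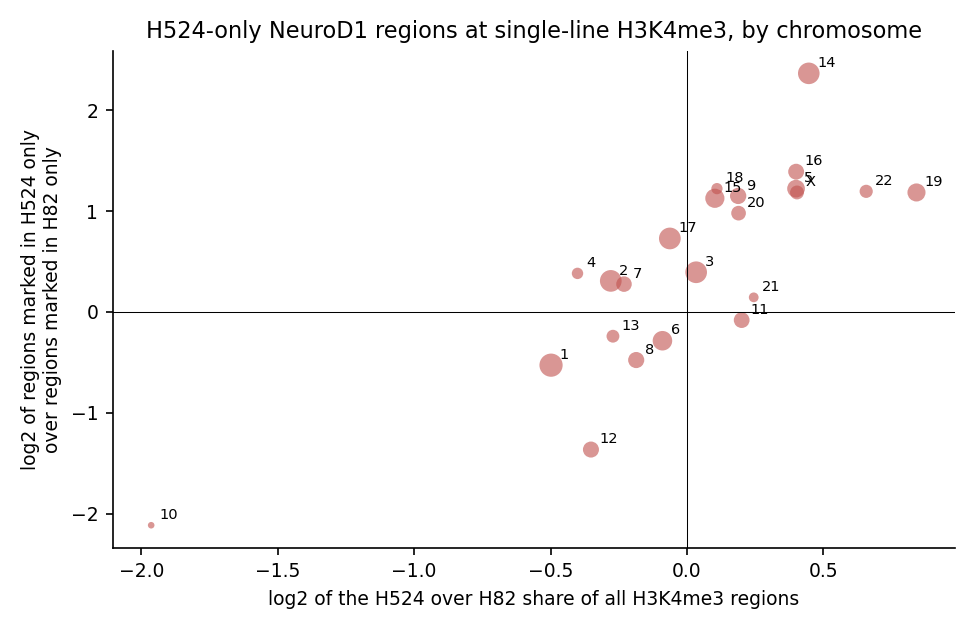
Each point is a chromosome, with its area rising with the number of H524-only NeuroD1 regions at H3K4me3; the y axis gives the log2 ratio of those marked in H524 only to those marked in H82 only (0.5 added to each count) and the x axis that of the share of all H3K4me3 regions in H524 over the share in H82. Chromosome 14 lies highest at 2.37 and chromosome 10 lowest at −2.12.

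Chromosome 19 was the richest in these regions for its number of H524-only NeuroD1 regions. Of 522 there, 173 (33.1%, 29.1 to 37.4) were at H3K4me3. Chromosome 17 followed with 24.0% (21.4 to 26.6) and chromosome 14 with 23.4% (20.9 to 26.1), and chromosome 10 had the lowest share, 7.75% (3.78 to 13.8). Chromosome 19 also held 10.3% of all H3K4me3 regions of H524 and 5.77% of those of H82. Chromosome 10 was sparsely listed in H524. It held 0.774% of the H3K4me3 regions of H524 against 3.02% of those of H82, and only 129 H524-only NeuroD1 regions. Chromosome 1 held the most regions, 295 (8.72% of the 3384), followed by chromosome 17 with 257 and chromosomes 2 and 3 with 256 each.

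Among individual regions, those with the highest scores in the classes marked in both lines and in H524 only were on chromosome 8. Marked in H524 only was the region from 127416792 to 127426493, which had rank 1 of the NeuroD1 list, a width of 9.70 kb, 13 summits and a score of 1048. The mark covered 1.55 kb of it, and the nearest H82 H3K4me3 was 142 kb away. It was followed by 127075497 to 127078078 (rank 18) and 128734571 to 128738085 (rank 26), whose overlap with the mark was 822 and 264 bp. Marked in both lines were 128806754 to 128808956 (rank 25) and 128811498 to 128814004 (rank 55). Both lay on the H524 H3K4me3 region from 128805090 to 128812396, which had rank 1 of its list and held 4 of the H524-only NeuroD1 regions, the most of any H524 mark. The best-ranked marks under these 3 regions marked in H524 only had ranks 1642, 5251 and 6673 of 18595 in that list. The part of copy number in these scores and ranks on chromosome 8 was not tested.

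Outside chromosome 8, the highest-scoring region marked in both lines was on chromosome 17 from 73285216 to 73285925, with rank 169 and a score of 33.5. It lay wholly in an H524 H3K4me3 region of 1334 bp at percentile 95.7 of its list. The H82 mark that overlapped part of this NeuroD1 region was 496 bp wide and at percentile 73.1. Marked in H524 only was the region on chromosome 17 from 79138115 to 79139642, with rank 199, of which 396 bp were covered by the mark and which lay 56.4 kb from H3K4me3 of H82. Marked in H82 only was the region on chromosome 5 from 149322135 to 149323280, with rank 429, which met the edge of an H82 H3K4me3 region of 482 bp at percentile 6.42 of its list. The next in this class, on chromosome 20 from 30160521 to 30161222 with rank 471, also met a low-ranked H82 mark, at percentile 11.7. All 5 of the highest-scoring regions marked in H82 only lay on marks below the median of the H82 list, between percentiles 6.42 and 48.5.

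**Figure D5:**
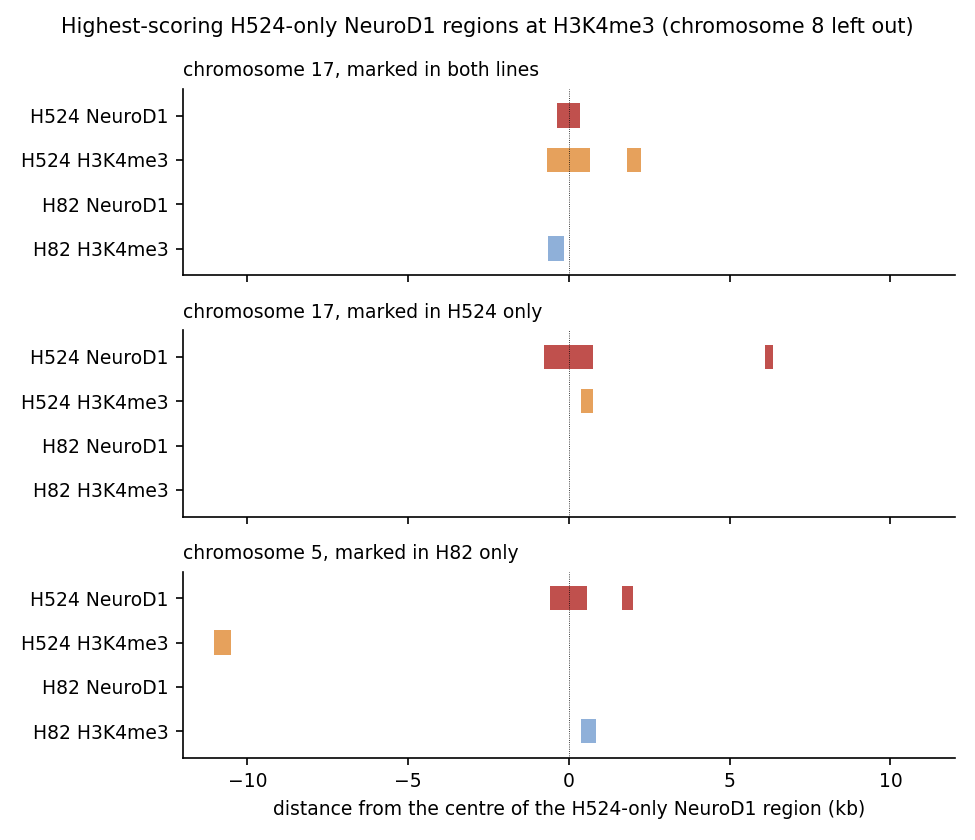
Listed regions of the 4 libraries (rows) within 12 kb of the highest-scoring H524-only NeuroD1 region of each mark class outside chromosome 8; the x axis is the distance in kb from its centre. In the top panel the mark of H524 spans the NeuroD1 region, while in the other panels the mark of a single line lies at its right-hand side.

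Outside chromosome 8, regions that ranked high for both NeuroD1 and the H524 mark were found on chromosomes 14, 17 and 19. The region on chromosome 19 from 18390180 to 18391487 was at percentile 97.0 for NeuroD1 and 98.3 for the mark, was marked in both lines, and lay 1.09 kb from an H82 NeuroD1 region. On chromosome 14, the regions from 103245113 to 103246114, 23466251 to 23466936 and 39644059 to 39644504 were marked in H524 only, with NeuroD1 percentiles of 97.0, 98.7 and 95.7 and mark percentiles of 96.2, 95.3 and 99.7. The last of these overlapped the mark by 39 bp and had H82 H3K4me3 at 0.312 kb. The first and second lay 186 kb and 10.9 kb from H3K4me3 of H82. Chromosome 14 also held the widest region outside chromosome 8, from 36963790 to 36967052, with 7 summits over 3.26 kb and at percentile 80.9, marked in H524 only and 173 kb from H3K4me3 of H82.

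The limit of 1 bp was crossed narrowly by few regions. An overlap of at most 10 bp was found for 25 of the 3384 regions and of at most 50 bp for 113, while 39 H524-only regions lay at most 10 bp and 111 at most 50 bp outside any mark. Just inside, with 1 bp of overlap, was a chromosome 18 region from 44336853 to 44337253 at percentile 6.71 by NeuroD1 score, and likewise a chromosome 22 region from 21271412 to 21271754 at percentile 61.2. Just outside, with no base left between it and the mark, was a chromosome 11 region from 120195935 to 120196255 at percentile 27.8, and likewise a chromosome 15 region from 41245175 to 41245700 at percentile 40.6.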

How the data were processed

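Each of the 4 peak lists analysed holds 1 immunoprecipitated library, and input libraries were not analysed. Per the submitters' processing notes, MACS2 2.1.1, Bowtie 1.1.2, Picard 1.118, Trimmomatic 0.38 and SAMtools 1.9 were used with build hg19. Their settings, and whether input served as a control, are not given in the sources used, so copy number and mappability may enter the lists. The score the authors deposited per region was taken, from its values, for a −log10 adjusted p-value, since the lowest was 1.30 in H524 NeuroD1. Entries with the same interval were merged at their highest score. Percentiles are ranks within a list.

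Overlaps were computed with Python 3.11.15, numpy 2.4.6, pandas 2.3.3, scipy 1.17.1 and statsmodels 0.14.6, drawn with matplotlib 3.10.9, and checked against bedtools 2.31.1 and on simulated data with planted overlaps. Regions were named by rule: the 5 highest scores of each mark class, the 5 highest smaller percentiles of NeuroD1 and H524 mark outside chromosome 8, the 3 widest, those nearest the overlap limit and the most occupied marks. Members, comparisons and rules were chosen with earlier results of these data known.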

Additional observations from a re-analysis of the deposited data

Results flagged for a closer look

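The balance of single-line marks had opposite signs in the NeuroD1 regions of a single line. The share marked in H524 only minus the share marked in H82 only was 8.69 percentage points among the 3384 H524-only NeuroD1 regions at H3K4me3 and −57.2 points among the 460 H82-only ones. The difference was not tested, since each list comes from 1 library, and the lists differ in length.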

How the results depend on the processing

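Over 6 alternatives, no recomputed difference changed sign, and the odds ratio stayed above 1. The number of regions and the share marked in both lines cannot change sign. Of 46 recomputed values, 31 stayed close to the value reported. This meant within its counting interval or, for the number of regions, within 1.5 times of it. Requiring coverage of at least 50% of the H524 NeuroD1 region changed the difference in marked share from shared regions to −12.5 points, the share marked in both lines to 44.6%, the H524-only minus H82-only marking to 4.89 points, the score percentile difference from unmarked regions to −9.87 and the mark percentile difference to 11.7. Counting gaps of up to 1 kb as overlap gave −26.8 points, 65.9% and a mark percentile difference of 23.6, and raised the odds ratio of single-line marking to 7.47. Dropping regions under the median score of each list left 1326 regions, 46.8% marked in both lines, a marking difference of 4.15 points, a mark percentile difference of 8.001 and an odds ratio of 2.88. Leaving out regions within 5 kb of H82 NeuroD1 gave a marking difference of 11.6 points. The coverage rule, the gap rule and the score limit also applied to the H82 NeuroD1 list. They therefore changed which regions counted as H524-only, as well as which counted as marked. The cause of the changes in value was not tested. No value moved beyond its interval without chromosome 8 or without regions within 2 Mb of the longest empty stretch of a chromosome. The odds ratio and the midpoint comparison were added later, and the midpoint comparison was not run for the overlap rules, which select on position. No paired analysis was possible because there is 1 library per antibody and line.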

Other observations

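The H524-only NeuroD1 regions at H3K4me3 were spread over 1400 blocks of 1 Mb, of which 598 held a single region. The fullest blocks were on chromosome 17, with 17 regions from 73 to 74 Mb, 16 from 79 to 80 Mb and 15 from 27 to 28 Mb, followed by 14 regions each on chromosome 14 from 23 to 24 Mb and on chromosome 3 from 183 to 184 Mb. Marking in both lines prevailed in the chromosome 3 block, with 12 of 14 regions, while the chromosome 14 block had 6 marked in H524 only, 6 in both lines and 2 in H82 only.

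Another H524 NeuroD1 region lay within 5 kb of 1116 of the 3384 regions (33.0%) and of 33.1% of the H524-only regions without the mark, a difference of −0.15 points (−1.88 to 1.62). The H82 H3K4me3 region that held the most H524-only NeuroD1 regions was on chromosome 8 from 72265653 to 72275705. It was 10.1 kb wide, held 5 of them and had rank 152 in the H82 list.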
